A study of Homo sapiens with 6 samples.

Results

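The axon guidance ligands and receptors described here are the semaphorins of classes 3 to 7, the ephrins, the slits and the netrins, with the plexins, neuropilins, Eph receptors, Robo receptors and UNC5 receptors. They were chosen by gene symbol among the protein-coding genes of the deposited table. The rule found 70 genes of 58735 in the table, 37 ligands and 33 receptors. RNA sequencing counts came from 6 libraries of LN229, an established human glioblastoma cell line. In 3 libraries the cells carried the genotype label HSD52 overexpression (HSD52_OE), where HSD52 is a long non-coding RNA gene, and 3 libraries came from LN229 cells labelled as wild type (control). The labels do not say how HSD52 was overexpressed, whether the HSD52_OE cells are 1 clone or a pool, whether control cells had a matching empty vector, or whether each replicate was its own culture. Every p-value given here reflects variation among these 6 libraries alone, some of which may be technical.

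Axon guidance molecules were named for steering the growth cones of neurons, and the same genes act in cell migration, in blood vessel growth and in tumours. Semaphorins signal through plexins, and the secreted class 3 semaphorins mostly need a neuropilin as co-receptor. Ephrins are bound to the membrane and signal through Eph receptor tyrosine kinases on a neighbouring cell, with A ephrins mainly on EphA and B ephrins mainly on EphB receptors. Slits act through Robo receptors and mostly repel, while netrin 1 attracts through DCC and repels through UNC5 receptors. In glioma cells these pathways have been studied mainly for invasion.

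Library totals ranged from 17777157 to 18917790 counts. CPM values are counts per library size after TMM scaling, and RPKM values are CPM divided by exonic length in kilobases. HSD52 itself had 1252, 1336 and 1327 counts in HSD52_OE libraries, against 11, 7 and 12 in control libraries. Control libraries differed more from each other (chi-square over degrees of freedom 15.1 to 18.6) than HSD52_OE libraries did (2.23 to 3.51). Of 12 glioma markers tested 4 rose and 4 fell in the edgeR test given below. Among all protein-coding genes tested 21.4% rose and 30.1% fell. VIM, NES, CD44, S100B and SOX2 averaged above 90 CPM in both groups. GFAP averaged 7.29 CPM in HSD52_OE and 4.83 CPM in control cells. SOX9, which fell, was near 0 in HSD52_OE cells (0.0879 CPM, against 1.10 CPM in control cells). It had 2, 3 and 0 counts in HSD52_OE and 11, 33 and 14 counts in control libraries. SOX9 met the low-count filter only through the control libraries, so being tested depended on the difference itself. Of the oligodendrocyte markers, SOX10 averaged 949 CPM in HSD52_OE and 1578 CPM in control cells, and CNP averaged 387 CPM in HSD52_OE and 449 CPM in control cells. MBP was under 1 CPM in both groups, and MOBP had 3 or fewer counts over all libraries.

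SEMA3E, SEMA6D and SEMA3C were the only semaphorins past the threshold in the upward direction, and SLIT2 and EPHB4 were among the strongest decreases. The 250 bases before the RefSeq start of each gene are shown for these 5 genes, which were chosen after their values and windows were seen. They come from RefSeq promoters on GRCh38.p14, run 5′ to 3′ on the strand of the gene, and overlap no annotated exon. Capitals mark 3 motifs searched on both strands, the GC box GGGCGG, the E-box CACGTG and the AP-1 site TGACTCA, with overlapping matches counted.

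SEMA6D (chr15:47183839-47184088, plus strand): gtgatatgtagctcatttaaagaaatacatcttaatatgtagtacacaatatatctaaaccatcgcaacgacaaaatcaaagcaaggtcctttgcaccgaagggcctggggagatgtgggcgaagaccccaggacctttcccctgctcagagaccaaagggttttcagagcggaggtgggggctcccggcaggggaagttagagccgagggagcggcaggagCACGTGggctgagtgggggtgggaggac

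SEMA3E (chr7:83649140-83649389, minus strand): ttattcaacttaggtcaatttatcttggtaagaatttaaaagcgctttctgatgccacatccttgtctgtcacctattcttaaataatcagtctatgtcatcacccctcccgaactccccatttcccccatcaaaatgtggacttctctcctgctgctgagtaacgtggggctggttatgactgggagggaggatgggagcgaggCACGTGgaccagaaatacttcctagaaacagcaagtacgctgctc

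SEMA3C (chr7:80922390-80922639, minus strand): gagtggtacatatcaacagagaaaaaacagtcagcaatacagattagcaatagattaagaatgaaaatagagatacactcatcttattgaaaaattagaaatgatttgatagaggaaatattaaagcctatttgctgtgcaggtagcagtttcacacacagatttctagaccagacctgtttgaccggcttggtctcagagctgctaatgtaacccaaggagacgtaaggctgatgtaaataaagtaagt

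SLIT2 (chr4:20251655-20251904, plus strand): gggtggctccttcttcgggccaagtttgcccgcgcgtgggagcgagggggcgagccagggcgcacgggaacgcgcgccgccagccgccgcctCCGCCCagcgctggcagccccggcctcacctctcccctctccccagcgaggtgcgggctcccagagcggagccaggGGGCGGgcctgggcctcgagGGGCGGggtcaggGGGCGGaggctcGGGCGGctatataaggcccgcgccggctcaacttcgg

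EPHB4 (chr7:100827524-100827773, minus strand): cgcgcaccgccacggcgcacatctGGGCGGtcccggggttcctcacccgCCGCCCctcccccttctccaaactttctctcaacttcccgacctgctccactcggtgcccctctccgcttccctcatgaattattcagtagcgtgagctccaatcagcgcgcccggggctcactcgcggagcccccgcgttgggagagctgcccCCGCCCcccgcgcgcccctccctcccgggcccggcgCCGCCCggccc

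The 250 bases held 9 CpG dinucleotides for SEMA6D, 6 for SEMA3E and 2 for SEMA3C, against 30 for SLIT2 and 29 for EPHB4. SLIT2 held 5 GC boxes and EPHB4 held 4, and the windows of SEMA6D, SEMA3E and SEMA3C held 0. Other genes went the other way: PLXNC1 and EPHA1, which rose, held 5 GC boxes each with 18 CpG for PLXNC1 and 17 for EPHA1, and ROBO1, ROBO2 and PLXNB1, which fell, held 0 GC boxes with 9 CpG for ROBO1, 7 for ROBO2 and 4 for PLXNB1. SEMA6D and SEMA3E each held 1 E-box, as did SEMA4D, which did not pass, and EPHA8, which was not tested. The RefSeq start of SLIT2 lies 1355 bases from the start of the gene in the deposited table. That distance is 404185 bases for ROBO2, 197459 for EPHB1, 24316 for SEMA4B, 5479 for PLXNA1 and 2474 for SEMA4D. The windows of these genes are thus not the bases next to the start in the deposited table. Over all 35116 RefSeq promoters, 42.6% held a GC box, 6.34% an E-box and 4.20% an AP-1 site, and the median was 11 CpG. Promoters were found for 59 of the 70 genes. Their median was 12 CpG for the 6 matched genes that rose and 21 CpG for the 23 matched genes that fell. A GC box stood in 3 of those 6 and in 16 of those 23. The 17 matched genes that did not pass had a median of 17 CpG, with a GC box in 15. The 13 matched genes that were not tested had a median of 23 CpG, with a GC box in 10. Of the 59 genes, 4 held an E-box and 0 held an AP-1 site. A match describes letters in this window only.

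Most axon guidance genes that changed were lower in HSD52_OE cells. Of the 70 genes, 55 passed the low-count filter and were tested, and 7 rose and 25 fell (p from edgeR's quasi-likelihood fit under 0.05 after Benjamini-Hochberg adjustment over all genes tested). The whole transcriptome was widely shifted: 50.6% of the 16322 genes tested passed, 25.0% higher and 25.6% lower. Among the 13155 protein-coding genes tested, 51.4% passed, 21.4% rose and 30.1% fell, against 12.7% and 45.5% of the guidance genes tested. Their median log2 fold change was -0.29, beside 0.01 for all genes and -0.06 for protein-coding genes. At a fold of at least 2 as well, 4 rose and 8 fell, where by that rule 5.83% of protein-coding genes rose and 3.75% fell, and 10.5% of all genes rose and 3.49% fell. The libraries of both groups did not overlap for 34 of the 55 genes (61.8%), beside 58.9% of all genes and 59.9% of protein-coding genes. With scaling by library totals alone, the median of all genes moved to 0.13, and 11 guidance genes rose and 23 fell, with 5337 higher and 2933 lower over all genes against 4086 and 4173 as reported. In bulk RNA, fewer cells of a kind and less RNA per cell cannot be told apart.

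**Figure D1:**
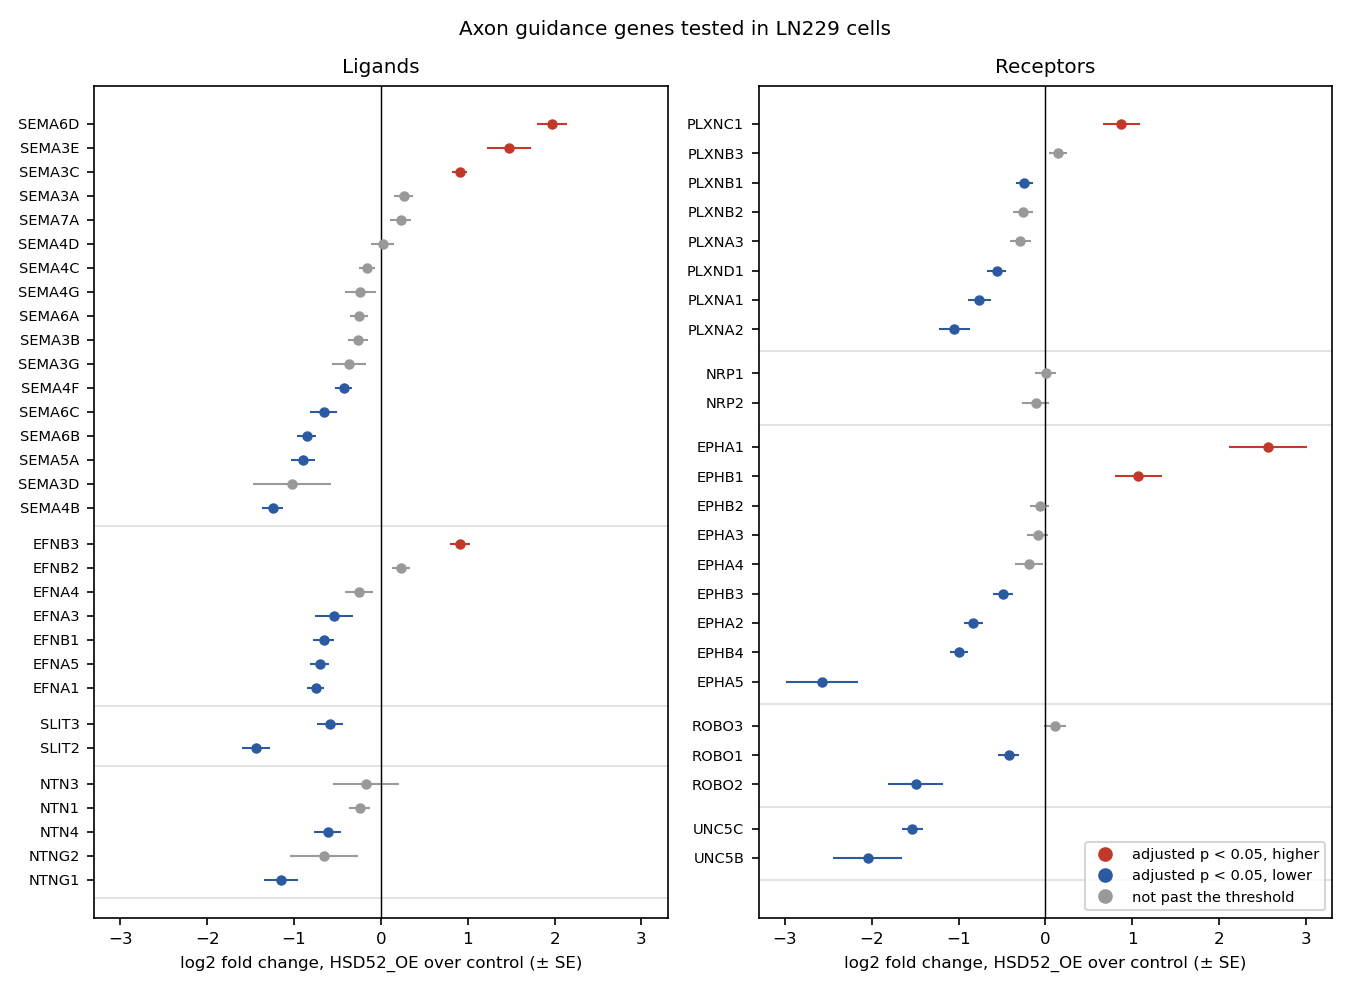
Log2 fold change of each of the 55 genes tested, HSD52_OE over control, with ligands left and receptors right, ordered within each family; bars are standard errors and colours give the edgeR call. SEMA6D, SEMA3E, SEMA3C, EFNB3, PLXNC1, EPHA1 and EPHB1 lie right of 0 and passed, and 25 genes that passed lie left of it, down to -2.57 for EPHA5. EPHA1 and EPHA5 have low counts.

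Lower calls outnumbered higher calls among ligands and among receptors. Of 31 ligands tested 4 rose and 13 fell, and their log2 fold changes had a median of -0.37. Of 24 receptors tested 3 rose and 12 fell, around a median of -0.27. Shares higher and lower were 12.9% and 41.9% for ligands and 12.5% and 50.0% for receptors, beside 21.4% and 30.1% for protein-coding genes. With library totals alone, 7 ligands rose and 12 fell, and 4 receptors rose and 11 fell. Whether ligands and receptors differ was not tested. Summed over all 37 ligands, the level per kilobase was 203, 201 and 202 RPKM in HSD52_OE libraries, against 262, 250 and 206 RPKM in control libraries. The 33 receptors summed to 201, 192 and 196 RPKM in HSD52_OE libraries and to 292, 262 and 212 RPKM in control libraries. Control replicate 3 lay closest to the HSD52_OE libraries in both sums.

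That library was the lowest of the 3 control libraries for 34 of the 55 genes tested (61.8%), beside 38.3% of all protein-coding genes. Control replicate 1 was the highest for 35 of the 55 (63.6%), beside 32.5% of protein-coding genes. Without control replicate 3, 7 guidance genes rose and 33 fell, beside 4303 higher and 4529 lower over all genes. Without control replicate 1, 8 rose and 23 fell, beside 3753 higher and 4110 lower over all genes. The part of these uneven control levels in the fold changes was not tested.

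Of 17 semaphorins tested, 3 rose and 5 fell. These shares, 17.65% and 29.41%, were near the 21.4% and 30.1% of all protein-coding genes tested. Of 6 secreted class 3 semaphorins tested, 2 rose and 0 fell. SEMA3C, which signals through neuropilins with plexins, had 167, 160 and 153 CPM in HSD52_OE libraries, against 91.7, 79.1 and 85.4 CPM in control libraries. All HSD52_OE libraries lay above all control libraries, with means of 160 ± 7.27 CPM in HSD52_OE and 85.4 ± 6.32 CPM in control cells (SD, n = 3 each). Its log2 fold change was 0.91 ± 0.08 (SE, edgeR adjusted p = 7.09e-07). SEMA3E, a ligand that binds PLXND1 without a neuropilin, had 3.39, 3.59 and 3.35 CPM in HSD52_OE and 1.69, 0.911 and 1.11 CPM in control libraries. The groups did not overlap, at a low level (log2 fold change 1.47 ± 0.26, edgeR adjusted p = 0.000237). Both lie on chromosome 7 with SEMA3A and SEMA3D. SEMA3A, the prototype collapsing factor for growth cones, averaged 53.9 ± 5.90 CPM in HSD52_OE and 45.0 ± 6.96 CPM in control cells, and did not pass (edgeR adjusted p = 0.0653). It passed under 4 of 13 alternatives, among them library totals alone, with adjusted p from 0.00877 to 0.308 over the 13. SEMA3D had 11, 8 and 6 counts in HSD52_OE libraries against 23, 9 and 15 in control libraries, and did not pass either (edgeR adjusted p = 0.0707).

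SEMA3B, described as a tumour suppressor in lung cancer, had the highest level of all guidance genes per kilobase. It stood at 54.7 ± 0.964 RPKM in HSD52_OE and 65.8 ± 12.2 RPKM in control cells. In CPM it had 316, 310 and 321 in HSD52_OE libraries, against 431, 408 and 299 in control libraries. The groups overlapped through control replicate 3, and the difference missed the threshold (log2 fold change -0.26 ± 0.12, edgeR adjusted p = 0.0663). Without control replicate 3 its edgeR adjusted p was 0.000287, the lowest of 13 alternatives, which reached 0.296. SEMA3G had 2.92 ± 0.199 CPM in HSD52_OE and 3.78 ± 0.352 CPM in control cells (edgeR adjusted p = 0.124), and SEMA3F fell under the low-count filter, with 20 counts in HSD52_OE and 33 in control libraries.

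Among the membrane-bound semaphorins of classes 4 to 7, 1 rose and 5 fell. Whether they differ from class 3 was not tested. SEMA6D, a class 6 semaphorin that binds PLXNA1, had 14.5, 17.3 and 14.7 CPM in HSD52_OE libraries, against 5.19, 3.24 and 3.44 CPM in control libraries. Every HSD52_OE library stood well above the highest control library, a 3.91-fold difference (log2 fold change 1.97 ± 0.17, edgeR adjusted p = 3.71e-07). SEMA4B, a transmembrane semaphorin, fell, with 36.1, 32.6 and 38.1 CPM in HSD52_OE and 99.8, 85.7 and 68.2 CPM in control libraries. Its highest HSD52_OE library lay far below its lowest control library (log2 fold change -1.25 ± 0.12, edgeR adjusted p = 8.97e-07). SEMA6B, from the same class as SEMA6D, fell to 85.5 ± 6.20 CPM in HSD52_OE cells, against 155 ± 26.4 CPM in control cells. SEMA5A, which carries thrombospondin repeats and binds PLXNB3, fell by 0.90 ± 0.14 on the log2 scale, and SEMA6C fell by 0.66 and SEMA4F by 0.43 on that scale. SEMA4C, SEMA4D, SEMA4G, SEMA6A and the GPI-anchored SEMA7A did not pass, with log2 fold changes of -0.16, 0.02, -0.24, -0.25 and 0.23. SEMA7A passed in 1 of 13 alternatives, library totals alone, with edgeR adjusted p from 0.0169 to 0.461 over the 13. SEMA4G shares 22.3% of its exonic bases with MRPL43 on the opposite strand, which leaves its count uncertain. SEMA5B had 0 counts in every library, and SEMA4A had 8 in HSD52_OE and 14 in control libraries.

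**Figure D2:**
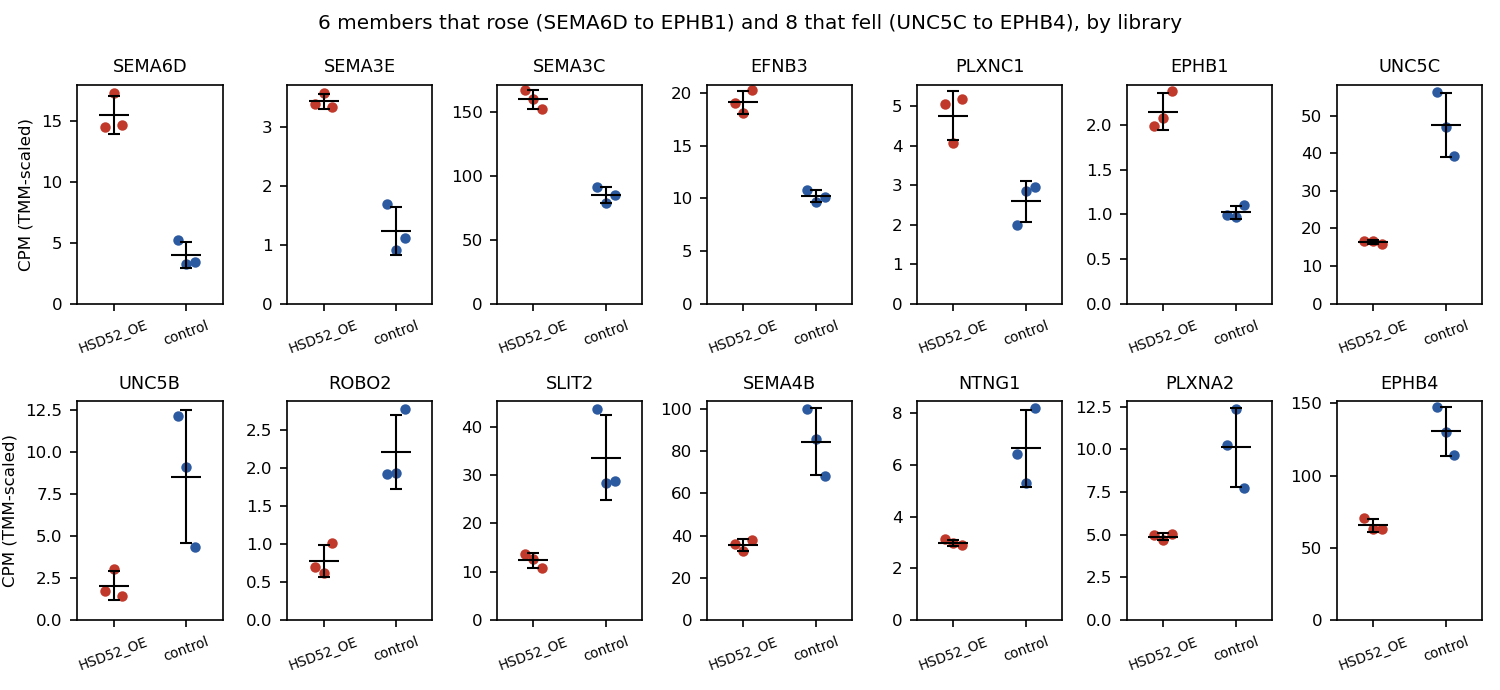
TMM-scaled CPM of 14 guidance genes in each library, HSD52_OE left and control right; black marks are the mean and SD over 3 libraries per group, and each panel has its own axis from 0. In each of the panels the 3 HSD52_OE points and the 3 control points do not overlap, as the rule that chose these genes required. HSD52_OE lies above control from SEMA6D to EPHB1 and below it from UNC5C to EPHB4. Over all 55 guidance genes tested 61.8% did not overlap, beside 59.9% of protein-coding genes.

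Of 8 plexins tested, the receptors of semaphorins, 1 rose and 4 fell (12.5% and 50.0%, beside 21.4% and 30.1% of protein-coding genes tested). PLXNA2 had 4.95, 4.68 and 5.03 CPM in HSD52_OE libraries, against 10.3, 12.4 and 7.71 CPM in control libraries, without overlap (log2 fold change -1.05 ± 0.17, edgeR adjusted p = 0.000158). PLXNA1, a partner of neuropilins and of SEMA6D, averaged 50.6 ± 1.26 CPM in HSD52_OE and 85.9 ± 19.8 CPM in control cells and fell by 0.76 ± 0.13 on the log2 scale. PLXND1, the SEMA3E receptor, averaged 95.1 ± 2.28 CPM in HSD52_OE and 140 ± 24.8 CPM in control cells and fell by 0.56 ± 0.11 on that scale. PLXNC1, the receptor of SEMA7A, was the 1 plexin that rose, with 5.06, 4.06 and 5.18 CPM in HSD52_OE libraries against 1.98, 2.85 and 2.94 CPM in control libraries. Its groups did not overlap (log2 fold change 0.88 ± 0.21, edgeR adjusted p = 0.00268). PLXNC1 shares 1.79% of its exonic bases with CEP83 on the opposite strand, which had more counts and rose too (log2 fold change 0.70), so its count is uncertain.

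PLXNB2 was the plexin with the highest level per kilobase, 48.7 ± 1.64 RPKM in HSD52_OE and 58.1 ± 11.1 RPKM in control cells. PLXNB3 came next, at 27.8 ± 0.882 RPKM in HSD52_OE and 25.1 ± 3.82 RPKM in control cells. PLXNB2 did not pass (log2 fold change -0.25 ± 0.12, edgeR adjusted p = 0.0798), and its edgeR adjusted p ran from 0.00181 without control replicate 3 to 0.343 with library totals alone. PLXNB3 and PLXNA3 did not pass, and PLXNB1 passed barely (log2 fold change -0.24 ± 0.09, edgeR adjusted p = 0.0418). PLXNB1 passed under only 6 of 13 alternatives, with edgeR adjusted p from 0.00729 to 0.309. PLXNB3 shares 20.4% of its exonic bases with SRPK3 on the same strand, a gene that itself rose (log2 fold change 1.13), so its count is uncertain. PLXNA4 had 19 counts in HSD52_OE and 9 in control libraries and fell under the low-count filter.

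Neither neuropilin, co-receptors of class 3 semaphorins and of VEGF, passed the test. NRP1 had 89.9, 90.9 and 85.8 CPM in HSD52_OE libraries, against 104, 95.2 and 67.3 CPM in control libraries. The control libraries spread to either side of the HSD52_OE libraries, with a log2 fold change of 0.00 ± 0.12 (edgeR adjusted p = 0.994). NRP2 averaged 92.8 ± 1.85 CPM in HSD52_OE and 100 ± 28.0 CPM in control cells (log2 fold change -0.11 ± 0.15, edgeR adjusted p = 0.564). The sign of NRP1 turned under 4 of 13 alternatives.

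In the Eph system, EPHA2 and its main ligand EFNA1 both fell. EPHA2, a receptor kinase often high in glioblastoma, had 99.3, 89.4 and 94.4 CPM in HSD52_OE libraries, against 180, 190 and 133 CPM in control libraries. No HSD52_OE library reached the lowest control library (log2 fold change -0.83 ± 0.11, edgeR adjusted p = 2.43e-05). Per kilobase it led the Eph receptors, at 22.7 ± 1.19 RPKM in HSD52_OE and 40.3 ± 7.27 RPKM in control cells. This was 33.5% of the summed Eph receptor level in HSD52_OE and 39.2% in control cells. EFNA1 had 25.9, 30.0 and 30.2 CPM in HSD52_OE libraries and 53.1, 44.7 and 47.0 CPM in control libraries. These groups were apart too (log2 fold change -0.75 ± 0.10, edgeR adjusted p = 2.08e-05). EFNA1 was the highest ephrin in control cells at 19.0 ± 1.69 RPKM. In HSD52_OE cells, EFNB2 (13.3 ± 0.910 RPKM) stood above EFNA1 (11.3 ± 0.939 RPKM), and in each group the libraries of these 2 genes did not overlap.

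EPHB4, the receptor that pairs with EFNB2 in the separation of arteries and veins, had 70.9, 62.8 and 63.0 CPM in HSD52_OE libraries, against 147, 131 and 114 CPM in control libraries. The groups were far apart (log2 fold change -0.99 ± 0.10, edgeR adjusted p = 1.30e-06). EFNB2 averaged 66.8 ± 4.57 CPM in HSD52_OE and 56.9 ± 8.77 CPM in control cells and did not pass (log2 fold change 0.23 ± 0.11, edgeR adjusted p = 0.0798). It passed under 3 of 13 alternatives, with edgeR adjusted p from 0.00771 with library totals alone to 0.278. EFNB2 shares 26.2% of its exonic bases with AL138689.2 on the opposite strand, which makes its count uncertain. EFNB3, a B ephrin of the nervous system, had 19.1, 18.1 and 20.3 CPM in HSD52_OE and 10.8, 9.68 and 10.2 CPM in control libraries. It was the 1 ephrin that rose (log2 fold change 0.91 ± 0.12, edgeR adjusted p = 1.31e-05).

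The other ephrins were lower or did not pass. EFNA5 fell by 0.71 ± 0.11 and EFNB1 by 0.66 ± 0.12 on the log2 scale. EFNA3 passed barely (log2 fold change -0.54 ± 0.22, edgeR adjusted p = 0.0480) and under only 4 of 13 alternatives, which ranged from 0.0131 to 0.177. It shares 44.7% of its exonic bases with the overlapping gene AL691442.1, which had 0 counts in every library, so its level is uncertain. EFNA4, which shares 15.0% of its exonic bases with the same gene, did not pass (edgeR adjusted p = 0.202). EFNA2 had 3 counts in HSD52_OE and 12 in control libraries and fell under the low-count filter.

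Eph receptors with low levels changed in both directions. EPHB1, a receptor of B ephrins, had 1.99, 2.08 and 2.39 CPM in HSD52_OE libraries against 0.992, 0.968 and 1.11 CPM in control libraries (log2 fold change 1.07 ± 0.27, edgeR adjusted p = 0.00394). EPHA1 and EPHA5 had means under 2 CPM and are named after their values were seen. EPHA1 had 28, 30 and 34 counts in HSD52_OE and 1, 5 and 8 counts in control libraries, a ratio of 6.025 with a 95% exact binomial interval of 3.415 to 11.45 for counting error only. Its log2 fold change was 2.56 ± 0.45 with all libraries, and 3.155 without control replicate 3 and 2.095 without control replicate 1. EPHA5 had 2, 5 and 7 counts in HSD52_OE and 25, 27 and 26 counts in control libraries, a ratio of 0.165 (0.0860 to 0.293). Neither gene's groups overlapped, and both passed, EPHA1 with an edgeR adjusted p of 0.000225 and EPHA5 with 0.000121. Each met the low-count filter only through the group where it was high. Being tested thus depended on the difference itself, and these p-values are to be read with that limit. EPHA1 shares 1.73% of its exonic bases with ZYX on the opposite strand, which had 4549 or more counts in each library and rose, and EPHA5 shares 5.44% with EPHA5-AS1, so both counts are uncertain. EPHB3 fell by 0.49 ± 0.12 on the log2 scale. EPHA3, EPHA4 and EPHB2 did not pass, with log2 fold changes of -0.09, -0.19 and -0.06, and EPHA3 was as high as 14.5 ± 1.25 RPKM in HSD52_OE and 15.4 ± 3.11 RPKM in control cells. The other Eph receptors fell under the low-count filter. EPHA6 had 3 counts over the HSD52_OE and 26 over the control libraries (ratio 0.106, interval 0.0205 to 0.345), and passed in the fit with no low-count filter. EPHA10 had 27 counts in HSD52_OE and 7 in control libraries, EPHB6 had 31 in HSD52_OE and 13 in control, EPHA7 had 8 in HSD52_OE and 3 in control, and EPHA8 had 2 in HSD52_OE and 0 in control.

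**Figure D3:**
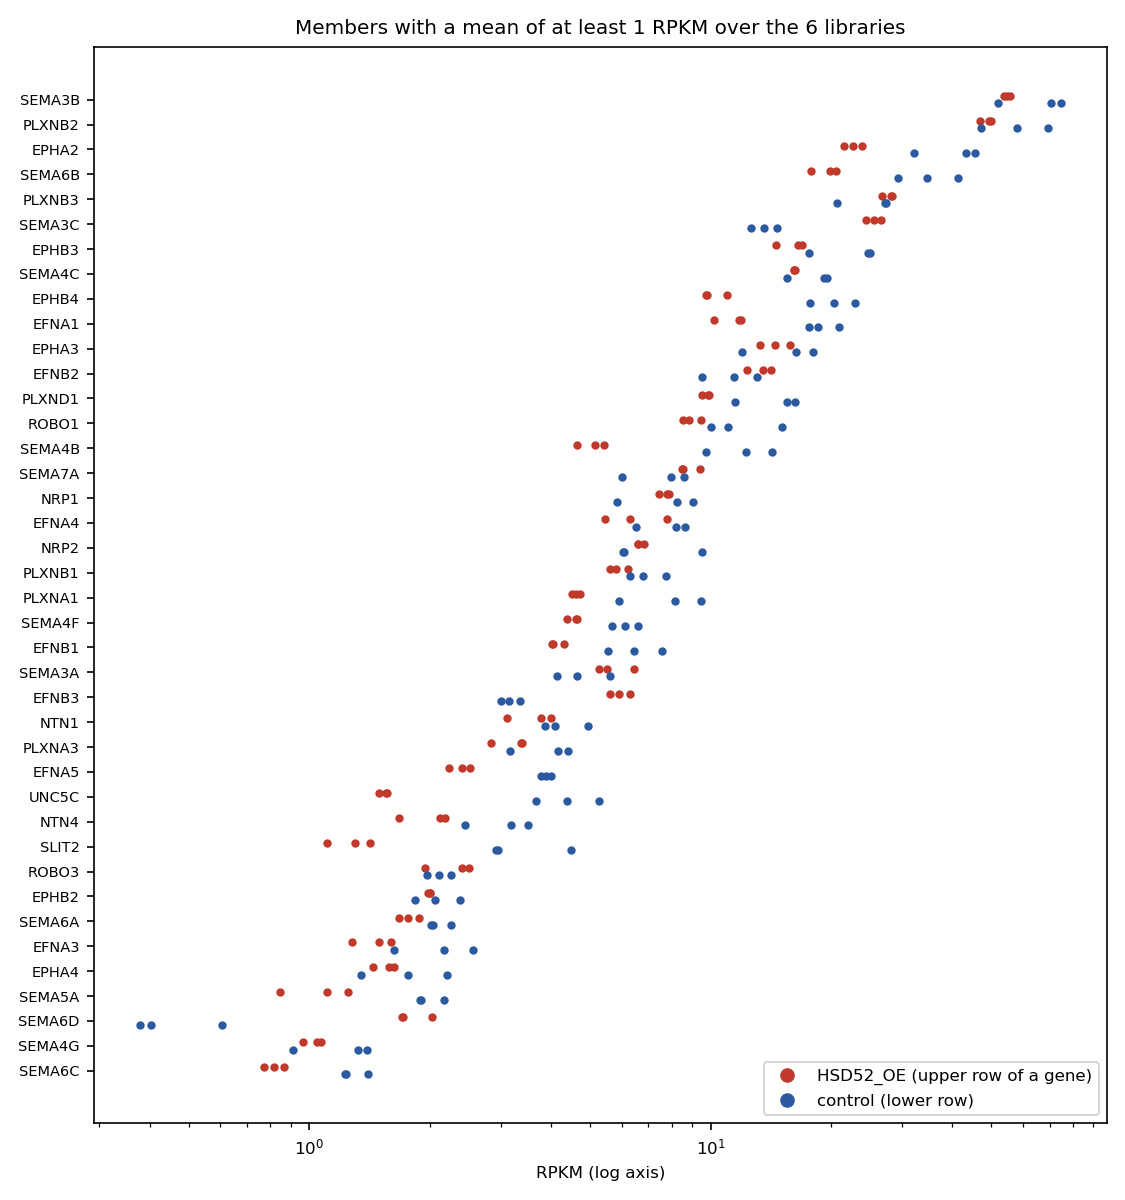
RPKM of the 40 guidance genes with a mean of at least 1 RPKM over all libraries, on a log axis, with 3 HSD52_OE points in the upper row and 3 control points in the lower row of each gene. SEMA3B and PLXNB2 are at the top near 50 RPKM and above, and SEMA6D, SEMA3C and EFNB3 show HSD52_OE points clear to the right of control points.

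Both slits tested fell, with ROBO1 and ROBO2. SLIT2, a secreted repellent, had 13.7, 12.6 and 10.8 CPM in HSD52_OE libraries, against 43.7, 28.3 and 28.7 CPM in control libraries. The highest HSD52_OE library was below every control library, and control replicate 1 stood above the other controls (log2 fold change -1.44 ± 0.16, edgeR adjusted p = 4.65e-06). SLIT3 averaged 8.84 ± 0.312 CPM in HSD52_OE and 13.3 ± 2.73 CPM in control cells and fell by 0.59 ± 0.15 on the log2 scale. SLIT1 had 5 counts in HSD52_OE and 9 in control libraries and fell under the low-count filter.

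ROBO1, at 79.1% of the summed Robo level per kilobase in HSD52_OE and 83.8% in control cells, had 103, 96.3 and 93.0 CPM in HSD52_OE libraries against 163, 109 and 120 CPM in control libraries. The groups did not overlap (log2 fold change -0.42 ± 0.12, edgeR adjusted p = 0.00879). ROBO2 was near 2 CPM or less, with 0.700, 0.624 and 1.02 CPM in HSD52_OE and 1.93, 1.94 and 2.78 CPM in control libraries (log2 fold change -1.49 ± 0.31, edgeR adjusted p = 0.000990). ROBO3, known from midline crossing of axons, did not pass (log2 fold change 0.11 ± 0.12, edgeR adjusted p = 0.483). ROBO4, an endothelial member, had 19 counts in HSD52_OE and 30 in control libraries.

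The netrin receptors UNC5C and UNC5B showed the largest decreases among members that reached 2 CPM in a group. UNC5C had 16.6, 16.7 and 15.9 CPM in HSD52_OE libraries, against 56.3, 46.8 and 39.2 CPM in control libraries. The HSD52_OE libraries were tight and lay far under all controls (log2 fold change -1.53 ± 0.12, edgeR adjusted p = 1.63e-07). UNC5B, a dependence receptor and p53 target, had 1.72, 3.02 and 1.42 CPM in HSD52_OE and 12.1, 9.11 and 4.33 CPM in control libraries. Its control libraries were spread widely, yet none overlapped the HSD52_OE libraries (log2 fold change -2.05 ± 0.40, edgeR adjusted p = 0.00230). UNC5A had 3, 6 and 7 counts in HSD52_OE libraries and 0, 0 and 1 counts in control libraries and was left out by the low-count filter, a ratio of 14.7 with an interval of 2.28 to 615. It passed in the fit with no low-count filter. UNC5D had 4 counts in HSD52_OE and 0 in control libraries.

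Of 5 netrins tested, 2 fell and 0 rose, where 30.1% of protein-coding genes tested fell and 21.4% rose. NTN1, the gene of netrin 1, had 25.5, 24.2 and 19.8 CPM in HSD52_OE libraries, against 31.5, 26.1 and 24.8 CPM in control libraries. These ranges overlapped, and the gene did not pass (log2 fold change -0.25 ± 0.12, edgeR adjusted p = 0.103, and over 13 alternatives from 0.0416 without control replicate 3 to 0.425 with library totals alone). NTN4, a laminin-related netrin of basement membranes, fell by 0.61 ± 0.16 on the log2 scale, to 8.30 ± 1.17 CPM in HSD52_OE cells against 12.7 ± 2.30 CPM in control cells. NTNG1, a membrane-anchored netrin of synapses, had 3.12, 2.97 and 2.89 CPM in HSD52_OE and 6.42, 5.29 and 8.21 CPM in control libraries, without overlap (log2 fold change -1.15 ± 0.20, edgeR adjusted p = 0.000182). NTNG2 and NTN3 did not pass, and NTN5 had 7 counts in each group.

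Set side by side, ligands and their known receptors did not share 1 pattern. EFNA1 and EPHA2 had log2 fold changes of -0.75 and -0.83, and SLIT2 and ROBO1 of -1.44 and -0.42, all lower. SEMA3E and PLXND1 had 1.47 and -0.56, and SEMA6D and PLXNA1 had 1.97 and -0.76, with the ligand higher and the receptor lower. SEMA3C had 0.91 while NRP1 and NRP2 had 0.00 and -0.11. NTN1 had -0.25 while UNC5C and UNC5B had -1.53 and -2.05, and the netrin receptors DCC and NEO1 had 0.56 and 1.46. EFNB2 and EPHB4 had 0.23 and -0.99, SEMA7A and PLXNC1 had 0.23 and 0.88, and SEMA5A and PLXNB3 had -0.90 and 0.15. Differences within these pairs were not tested.

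Other guidance receptors and cues, from a list of 29 genes of which 28 were matched and 17 tested, held 5 that rose and 9 that fell, or 6 and 7 with library totals alone. In the main fit 29.4% rose and 52.9% fell, beside 21.4% and 30.1% of protein-coding genes tested. The median log2 fold change of the list was -0.33. NEO1, a receptor of netrins and repulsive guidance molecules, rose to 30.3 ± 0.572 CPM in HSD52_OE cells, against 11.0 ± 1.61 CPM in control cells (log2 fold change 1.46 ± 0.12, edgeR adjusted p = 1.74e-07). DCC, the attractive netrin receptor, rose by 0.56 ± 0.14, FLRT2, an UNC5 ligand, by 0.81 ± 0.14, and MET, the receptor of hepatocyte growth factor, by 0.44 ± 0.09 on the log2 scale. NRCAM, an adhesion molecule that associates with neuropilins, fell to 17.1 ± 3.58 CPM in HSD52_OE cells, against 52.0 ± 11.5 CPM in control cells (edgeR adjusted p = 1.36e-05). PTK7, a pseudokinase of planar polarity, fell by 0.99, GAS1, a hedgehog co-receptor, fell by 0.94 and FLRT3 fell by 0.48, all as log2 fold changes.

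Of 80 cytoplasmic effectors listed 76 were tested, of which 11 rose and 38 fell, around a median of -0.29 in log2 fold change. These shares were 14.5% and 50.0%, beside 21.4% and 30.1% of protein-coding genes tested. With library totals alone 17 rose and 32 fell, and 6 rose and 34 fell without HSD52_OE replicate 1, or 7 and 33 without HSD52_OE replicate 2. CRMP1, a mediator of semaphorin 3A signals to the cytoskeleton, rose to 57.2 ± 1.46 CPM in HSD52_OE cells, against 19.9 ± 2.02 CPM in control cells (log2 fold change 1.52 ± 0.10, edgeR adjusted p = 1.96e-08). The log2 fold changes were 0.90 for the p21-activated kinase PAK3, 0.62 for the cofilin kinase LIMK2 and 0.45 for the ubiquitin ligase PDZRN3, which also rose. NFATC1, a transcription factor activated by calcineurin, fell to 42.0 ± 2.53 CPM in HSD52_OE cells, against 94.0 ± 7.18 CPM in control cells (edgeR adjusted p = 1.25e-07). RRAS, a small GTPase switched off by plexins, fell by 1.05 as a log2 fold change, and the cofilin phosphatase SSH2 by 0.99. EVL, an actin-elongating Ena/VASP protein, fell to 20.8 ± 2.06 CPM in HSD52_OE cells, against 41.4 ± 1.84 CPM in control cells.

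**Figure D4:**
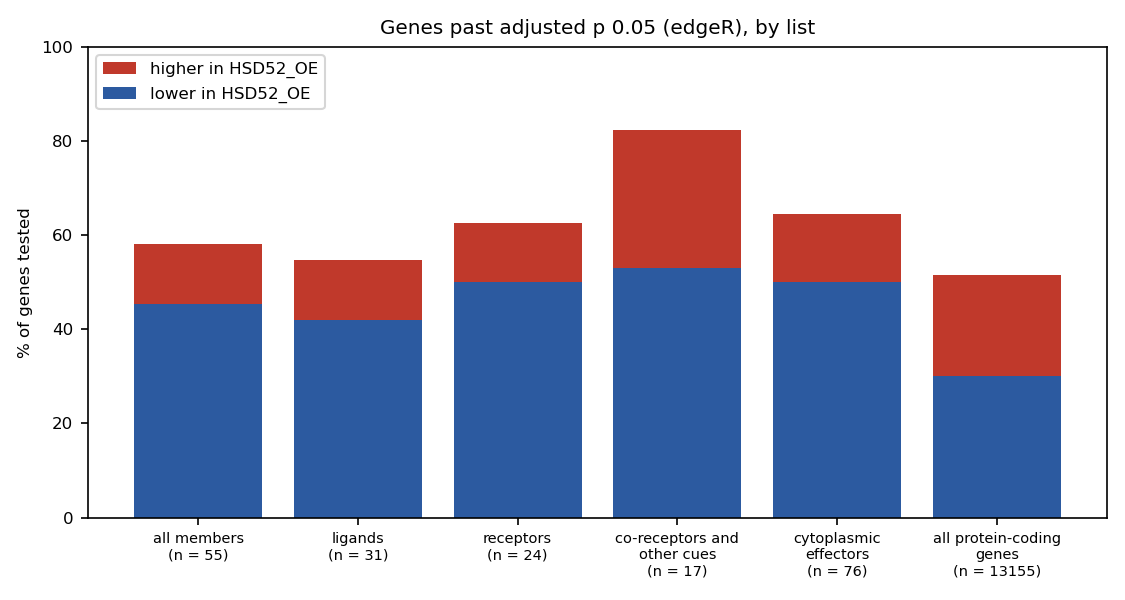
Share of tested genes past adjusted p 0.05 in edgeR's test, lower calls in the bottom part and higher calls in the top part of each bar, for the 55 guidance genes, their 31 ligands and 24 receptors, both pathway lists and all 13155 protein-coding genes. Lower calls took 45.5% of guidance genes and 50.0% of effectors, beside 30.1% of protein-coding genes.

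On hg38, SEMA6D (ENSG00000137872) spans chr15:47184101-47774223 on the plus strand, SEMA3C (ENSG00000075223) chr7:80742538-80922359 on the minus strand and UNC5C (ENSG00000182168) chr4:95162504-95549206 on the minus strand. SLIT2 (ENSG00000145147) spans chr4:20253260-20620561 on the plus strand, EPHB4 (ENSG00000196411) chr7:100802565-100827521 on the minus strand and EPHA2 (ENSG00000142627) chr1:16124337-16156087 on the minus strand. Genes near guidance genes differed from locus to locus. Some loci are given as examples, beside 25.0% higher and 25.6% lower over all genes tested. Within 1 Mb of the start of SEMA4B, 30 other genes were tested, with a median log2 fold change of -0.43, and 4 rose and 16 fell. Around EFNA1, 59 neighbours had a median of -0.22, with 8 higher and 26 lower, and around SEMA6B, 36 neighbours had a median of -0.47, with 1 higher and 24 lower. Near EPHB4, 55 neighbours had a median of 0.04, with 17 higher and 13 lower. Near EPHA2, 32 neighbours had a median of -0.03, with 7 higher and 8 lower. SEMA6D, SEMA3C, SEMA3E, UNC5C and SLIT2 had 1 to 4 tested neighbours each.

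Some markers of other cells and of RNA make-up also differed between the groups. Over all genes tested 25.0% rose and 25.6% fell, and over protein-coding genes 21.4% rose and 30.1% fell. Of 8 fibroblast markers tested 1 rose and 7 fell, at a summed level of 51.3 to 52.7 CPM in HSD52_OE and 115.5 to 208.6 CPM in control libraries. COL1A1 and COL3A1, defining fibroblast collagens, were at 5.44 and 0.227 CPM in HSD52_OE and at 72.4 and 16.3 CPM in control cells. Of 6 neuronal markers tested 4 rose and 1 fell, summing to 43.4 to 47.1 CPM in HSD52_OE and 37.9 to 42.0 CPM in control libraries, with STMN2 at 0. Of 4 epithelial markers tested 3 rose and 1 fell, with sums of 176 to 189 CPM in HSD52_OE and 124.5 to 142 CPM in control libraries, while EPCAM and CDH1 had 3 or fewer counts over all libraries. Of 3 endothelial markers tested 1 rose and 1 fell, and the list summed to 3.45 to 5.33 CPM in HSD52_OE and 3.09 to 4.95 CPM in control libraries. Microglial and leukocyte markers summed to 1.668 to 2.996 CPM in HSD52_OE and 1.28 to 2.16 CPM in control libraries, and 0 of 2 tested passed. All 5 nuclear-retained transcripts tested rose, with sums of 1582 to 1827 CPM in HSD52_OE and 829 to 900 CPM in control libraries. COL1A2, COL3A1 and PECAM1, which fell, met the low-count filter only through the control libraries. For these 3 genes, being tested depended on the difference itself. The part of all these marker differences in the results on guidance genes was not tested.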

How the data were processed

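The deposited table held raw read counts per gene for 6 libraries. Per the submitters' processing notes, reads were aligned with HISAT2 2.0.5 to hg38 and counted with featureCounts 1.5.0-p3. The sources used here do not name the annotation or the strand setting, so overlapping genes are uncertain. The labels' protocols describe TRIzol extraction, poly-T selection and random hexamer priming. All 58735 genes matched GENCODE release 29 in start and end, and the deposited gene length, the authors' other value used, equalled the union of exons. The members and lists were chosen with earlier results of these data known. Genes were filtered with filterByExpr, scaled by TMM and tested with edgeR 4.0.16 (quasi-likelihood, robust, group alone, 2-sided, R 4.3.3), with Benjamini-Hochberg adjustment over 16322 genes. Members were named if past 0.05, without overlap and at 2 CPM or more in a group (8 highest, 8 lowest), or highest per kilobase in a family, and in each pathway list the 4 smallest p per direction. For members named by the first rule, the lack of overlap was thus a condition of the choice. Alternatives were other scalings, filters, DESeq2 1.42.0, limma-voom 3.58.1, a replicate block and leaving out each library. RPKM was computed here from TMM-scaled CPM and the deposited lengths. The fit was also run on simulated counts in which both groups had the same spread and few genes changed. These data differ in both respects, so that run gives no error rate for them. Intervals cover counting error only. The oligodendrocyte marker list is not reported in full here.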

Additional observations from a re-analysis of the deposited data

How the results depend on the processing

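The counts of guidance genes, of ligands and of receptors stayed within 1.5 times under RLE scaling, DESeq2, limma-voom and both other low-count filters. With library totals alone, 11 guidance genes and 7 ligands rose, against 7 and 4 as reported, and 17 effectors rose, against 11. Requiring a fold of at least 2 as well left 4 guidance genes higher and 8 lower, 2 ligands higher and 3 lower, and 5 receptors lower. Leaving out each library in turn gave 7 to 8 guidance genes higher and 23 to 33 lower, 4 to 5 ligands higher and 12 to 18 lower, 3 to 4 receptors higher and 11 to 15 lower, 6 to 11 effectors higher and 33 to 42 lower, and 4 to 7 other receptors and cues higher and 7 to 9 lower. Of the 32 calls, those of EFNA3 and PLXNB1 were lost under some alternatives, the other 30 passed in each alternative fit, and 0 reversed. The log2 fold change of NRP1 was -0.039 with no low-count filter, and without single libraries it ranged from -0.17 to 0.11. Replicate numbers are not stated to pair libraries. Deviations of same-numbered libraries correlated by 0.0307 to 0.0383, each highest for its own number, and a replicate block gave 9 guidance genes higher and 27 lower. The causes of these shifts were not tested. The low-count filter left out 15 of the 70 genes. With no low-count filter 14 of these were tested and EPHA6 (log2 fold change -3.12, edgeR adjusted p = 0.00264) and UNC5A (3.43, edgeR adjusted p = 0.0275) passed, and EPHA10 passed without HSD52_OE replicate 1 (edgeR adjusted p = 0.0169, against 0.0747 with no low-count filter).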
